A study of Mus musculus with 4 samples.

Results

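Fxyd2, Lyz1 and Ecm1 were followed in macrophages of the mouse hindpaw. The 3 genes were chosen by an earlier result of these data, namely their high ratio of DB over WT in macrophages at 12 weeks, and are 3 of the 32285 genes in the count tables. Macrophages were taken by a fixed rule from barcodes that held 200 or more genes and no more than 10% of UMIs from mitochondrial genes. A cell counted as a macrophage when it held at least 10 UMIs of the complement genes C1qa, C1qb and C1qc together and no UMI of the T cell gene Cd3e. A UMI, or unique molecular identifier, stands for 1 captured transcript. The rule gave 6120 macrophages among 27800 kept cells.

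CD45+ leukocytes were sorted from collagenase-digested hindpaws of male mice and sequenced by droplet single-cell RNA-seq. DB mice were Lepr db/db mice of the strain C57BLKS/J-Dock7m +/+ Leprdb, which lack the long, signalling form of the leptin receptor and become obese and diabetic. WT mice were their Lepr WT/WT littermates. Both genotypes were sampled at 12 and 21 weeks, without injury or treatment, which gave 4 libraries: 12-week-WT and 12-week-DB, then 21-week-WT and 21-week-DB. Runs of 4 values keep this order throughout. Each library pooled 2 to 3 mice, and each condition had 1 library, so conditions could not be compared against a spread between replicates and none was tested. Ratios between conditions are descriptions, with exact 95% intervals that cover counting error only.

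Fxyd2 encodes the gamma subunit of the Na,K-ATPase, a small membrane protein that regulates the sodium pump and is best known from the kidney. Lyz1 encodes lysozyme P, an enzyme that cleaves bacterial cell wall peptidoglycan and is known from Paneth cells. Its close paralog Lyz2 encodes lysozyme M, which is made by most myeloid cells. Ecm1 encodes a secreted glycoprotein of the extracellular matrix. Tissue macrophages are commonly divided by Lyve1, a hyaluronan receptor of resident perivascular macrophages, and by MHCII, which presents antigen to T cells. Macrophages that line joints carry Vsig4, a complement receptor.

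The genes lie apart on GRCm38. Fxyd2 (ENSMUSG00000059412) is at chr9:45399669-45410278 on the plus strand, Lyz1 (ENSMUSG00000069515) at chr10:117287797-117292868 on the minus strand and Ecm1 (ENSMUSG00000028108) at chr3:95734147-95739569 on the minus strand. Lyz2 (ENSMUSG00000069516) follows Lyz1 on the same strand at chr10:117277331-117282321, with 5475 bases between them. Their transcripts were 96.0% identical over 1262 aligned bases, with 51 differing bases. Of 1174 windows of 90 bases in the Lyz1 transcript, 44 were found unchanged in Lyz2, and 15 of these lay among the 411 windows of its last 500 bases, where a 3' assay counts. Reads from such windows fit either gene, and whether they were counted for Lyz1, for Lyz2 or not at all was not checked. Lyz1 counts are therefore given beside those of Lyz2 below. No window of Fxyd2 or Ecm1 was shared with another gene. The only gene annotated over Ecm1 was the microRNA gene Mir7014, on the same strand.

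The upstream sequences of the lysozyme pair show how far the 2 neighbours differ outside their near-identical transcripts. The sequences are from RefSeq on GRCm38.p6, written 5' to 3' on the gene's strand from base -250 to base -51 before RefSeq's start of the gene, with capitals at bases that differ from the paralog or have no partner in it. The Lyz1 window is chr10:117292919-117293118 and the Lyz2 window chr10:117282323-117282522, both on the minus strand. For Lyz1 and Ecm1 that start is the first base of the gene as given above, while for Lyz2 it lies 49 bases inside the gene, and positions are counted from there.
Lyz1: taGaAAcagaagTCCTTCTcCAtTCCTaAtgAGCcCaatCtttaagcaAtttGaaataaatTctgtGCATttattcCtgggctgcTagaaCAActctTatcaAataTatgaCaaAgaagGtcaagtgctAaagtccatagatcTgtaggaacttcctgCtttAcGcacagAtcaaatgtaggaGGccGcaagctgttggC
Lyz2: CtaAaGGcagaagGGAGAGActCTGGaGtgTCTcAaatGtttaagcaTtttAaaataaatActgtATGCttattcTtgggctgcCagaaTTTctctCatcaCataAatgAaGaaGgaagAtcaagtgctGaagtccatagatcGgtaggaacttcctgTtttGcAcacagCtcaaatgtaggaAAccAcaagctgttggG
Of 198 aligned bases, 150 were identical, or 75.8%. The letters AGGAAGT, the core of the site of the myeloid factor PU.1, were searched on both strands of the 250 bases before each start. They were found once in each lysozyme window, on the opposite strand at base -100, and in 7.69% of 32851 promoters of the same length. The Ecm1 window, chr3:95739570-95739819 on the minus strand and from base -250 to base -1, held no such match. It held the letters TGANTCA, an AP-1 site, once at base -64, shown in capitals.
Ecm1: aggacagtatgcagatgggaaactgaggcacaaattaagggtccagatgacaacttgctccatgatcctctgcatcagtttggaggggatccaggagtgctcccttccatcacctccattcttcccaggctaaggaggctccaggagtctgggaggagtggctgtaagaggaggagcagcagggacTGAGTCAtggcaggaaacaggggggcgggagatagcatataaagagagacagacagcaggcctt
TGANTCA was in 6.75% of the promoters and in neither lysozyme window. These matches describe letters in the windows, not bound sites.

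The libraries held 5998 to 9124 barcodes, of which 5271 to 8707 were kept. Macrophages numbered 1600, 1662, 1497 and 1361, which were 30.4%, 25.4%, 20.6% and 15.6% of the kept cells. They held 13844070 to 19063977 UMIs per library, at medians of 9185 to 10808 UMIs per cell. Of 12 macrophage markers, among them the C1q genes that the rule itself used, 11 or 12 were found in at least 25% of these cells in every library. By the same bar 1 of 5 monocyte markers and 1 of 5 B cell markers passed in each library except 21-week-DB. Of 5 neutrophil markers 1 passed in each library except 12-week-WT. Among markers of other cell types, the 7 T cell markers summed to 19.1 to 26.5 UMIs per 1000000 UMIs (CPM), with Cd3e at 0 by the rule. The summed level was 229, 411, 290 and 123 CPM for 5 monocyte markers, 45.7 to 123 CPM for 6 dendritic cell markers and 65.1 to 246 CPM for 5 neutrophil markers. Lyve1 was detected in 68.8%, 61.3%, 61.6% and 68.0% of macrophages and Vsig4 in 25.8%, 20.3%, 32.1% and 40.2%. H2-Ab1 was high, at 2 or more on the scale ln(1 + UMIs per 10000), in 35.1%, 36.4%, 51% and 13.3%. Cell Ranger is given as 5.0.0 in the headers of the 12-week files and as 6.0.0 in those of the 21-week files, so software and age cannot be told apart. Kept barcodes were shared by 146 cells of the 21-week pair, by 38 of the 12-week pair and by 5 to 18 of other pairs, and 4 to 13 macrophages per library had a shared barcode. Without them the DB over WT ratios of the 3 genes were 1.95, 1.27 and 0.93 at 12 weeks and 1.8, 0.54 and 0.85 at 21 weeks, on the log2 scale, within 0.01 of the values given next.

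Fxyd2 was far higher in DB macrophages at both ages. At 12 weeks its level was 946 CPM in WT and 3642 CPM in DB, and at 21 weeks it was 1109 CPM in WT and 3858 CPM in DB. Both DB libraries were thus above both WT libraries, and age made little difference within a genotype. The ratio of DB over WT at 12 weeks, which chose the gene, was 1.95 on the log2 scale (1.92 to 1.97), or 3.85-fold. At 21 weeks, in libraries that the choice did not use, it was 1.8 (1.78 to 1.82), or 3.48-fold. Fxyd2 was detected in 82.8% and 97.6% of macrophages of 12-week-WT and 12-week-DB, and in 82.4% and 96.8% of those of 21-week-WT and 21-week-DB. With every cell thinned to 2000 UMIs these shares were 54.6%, 89.5%, 55.7% and 87.5%. The thinning dropped 15, 12, 8 and 9 macrophages of lower depth. Between 12 and 21 weeks the level moved by 0.23 in WT (0.20 to 0.26) and by 0.08 in DB (0.07 to 0.10).

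Lyz1 had the same order at 12 weeks and a smaller difference at 21 weeks. At 12 weeks it was at 750 CPM in WT and 1813 CPM in DB, and at 21 weeks the WT level was 883 CPM and the DB level 1280 CPM. The log2 ratio of DB over WT was 1.27 at 12 weeks (1.24 to 1.30), or 2.42-fold, and 0.54 at 21 weeks (0.50 to 0.57), or 1.45-fold. The size of the 21-week ratio rested on the macrophage rule. With cells taken by at least 3 UMIs of Csf1r and Adgre1, genes of macrophage receptors, in place of C1q, a rule tried after the data were seen, it was 1.11 (1.08 to 1.14) over 2445 WT and 1591 DB cells, and the 12-week ratio was 1.52. The share of macrophages with a UMI of Lyz1 did not follow the level at 21 weeks. At 12 weeks it was 59.1% in WT and 74.8% in DB, but at 21 weeks 64.6% in WT and 61.1% in DB. Thinned to 2000 UMIs, the shares were 39.3%, 55.4%, 43.3% and 41.0% in the same order. From 12 to 21 weeks Lyz1 was higher by 0.24 in WT (0.20 to 0.27) and lower in DB, with a ratio of -0.50 (-0.53 to -0.48). The share of MHCII-high cells and the summed monocyte markers, given above, were also lower in 21-week-DB than in 12-week-DB. Their part in this difference was not tested. Within DB the ratio of Lyz1 with age was -0.41 (-0.46 to -0.36) in MHCII-high cells. In the remaining, MHCII-low cells it was -0.04 (-0.074 to -0.0053). Lyz2 did not share the pattern of Lyz1 over the libraries, with 7909, 9084, 7320 and 11610 CPM. Its DB over WT ratios were 0.20 at 12 weeks and 0.67 at 21 weeks.

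Ecm1 was higher in DB at both ages by a smaller factor. It stood at 765 CPM (WT) against 1452 CPM (DB) at 12 weeks, and at 819 against 1477 CPM at 21 weeks. The log2 ratio of DB over WT was 0.92 at 12 weeks (0.89 to 0.95), or 1.90-fold, and 0.85 at 21 weeks (0.82 to 0.88), or 1.8-fold. As for Fxyd2, the libraries fell into pairs by genotype. The share of cells with a UMI was 89.1%, 97.2%, 91.4% and 95.6%, and 61.7%, 85.9%, 67.0% and 83.1% after thinning. With age Ecm1 moved by 0.10 in WT (0.06 to 0.13) and by 0.03 in DB, where the interval of -0.00068 to 0.05 included no change.

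**Figure D1:**
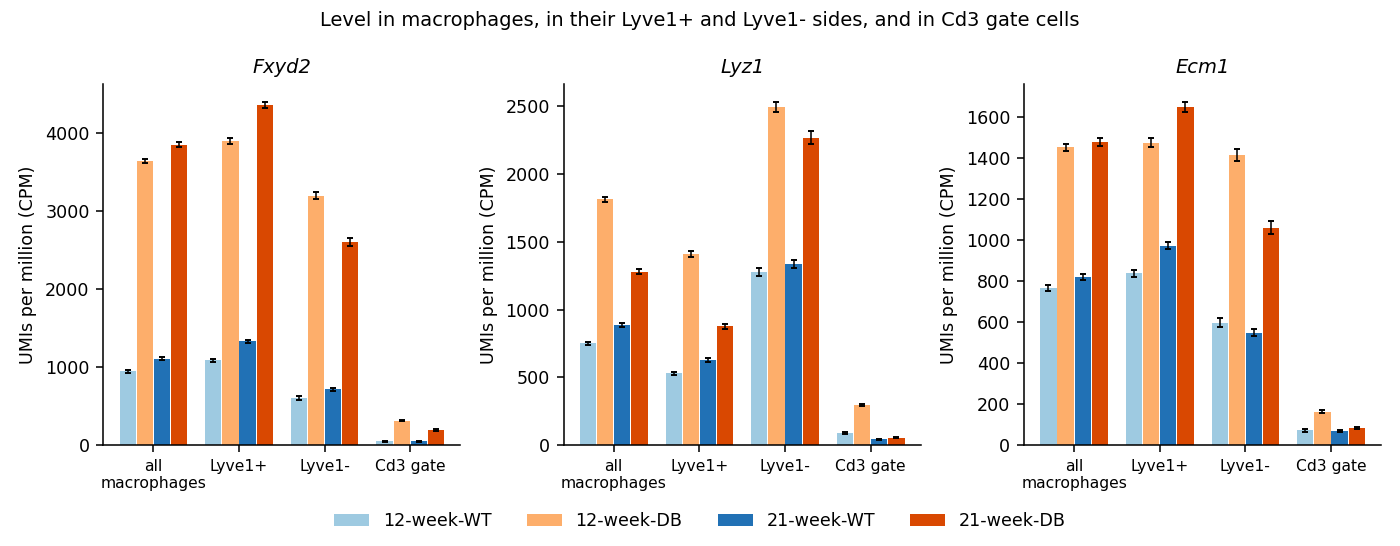
CPM (linear axis from 0) of Fxyd2, Lyz1 and Ecm1 in each library, for all macrophages, their Lyve1+ and Lyve1- sides and cells with Cd3 transcripts; bars are summed counts and whiskers exact 95% Poisson intervals. In all macrophages Fxyd2 stands at 3642 and 3858 CPM in the DB libraries against 946 and 1109 CPM in the WT libraries.

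Against all expressed genes the members kept different places at the 2 ages. Of 1785 genes that reached 100 CPM in either library and had 50 or more UMIs, 0.336% were at least 2-fold higher in 12-week-DB macrophages. Fxyd2, Lyz1 and Ecm1 ranked 1, 4 and 9. These places are what chose the genes and show nothing more. Ccl6, a chemokine gene, stood between them at a log2 ratio of 1.35, followed by the lectin gene Clec4d at 1.34. Just around Ecm1 were S100a6 at 0.95 and S100a4 at 0.88, genes of small calcium-binding proteins. At 21 weeks 2.78% of 1689 genes were at least 2-fold higher in DB, and 1 of the 3 members, Fxyd2, was among them. By the rule on Csf1r and Adgre1 the log2 ratios at 21 weeks were 2.21, 1.11 and 1.15 for Fxyd2, Lyz1 and Ecm1. That rule was tried after the data were seen. No share over all genes was computed for it, so its members are not counted. By the C1q rule Fxyd2 ranked 14, Ecm1 63 and Lyz1 179 among the 1689 genes at 21 weeks, while the median gene was at 0.05. With age, 1.51% of 1721 genes in WT and 6% of 1784 genes in DB moved at least 2-fold in either direction, and none of the 3 members did. Lyz1 ranked 208 from the top with age in WT and 1453 in DB. The comparisons with age share their libraries with those between genotypes.

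The 3 genes differed in how their UMIs were spread over cells. The median macrophage held 3.73 and 28.6 UMIs of Fxyd2 per 10000 UMIs in WT and DB at 12 weeks, and 3.72 and 26.9 at 21 weeks. Cells with at least 20 UMIs of Fxyd2 made up 13.1% and 19.8% of the WT macrophages and 60.4% and 54.8% of the DB macrophages. The higher level in DB thus lay in most cells, and the 25th percentile of DB macrophages was 11.5 and 11 per 10000, above the median of WT. For Ecm1 the medians were 5.68, 12.9, 6.79 and 12.7 per 10000 in the 4 libraries. Lyz1 had medians of 1.12, 4.86, 1.69 and 1.60. At 21 weeks its medians in DB and WT were thus close, while its 90th percentile was 35.9 in DB against 26.4 in WT. The 10% of macrophages with the most Lyz1 held 64.7%, 54.2%, 60.1% and 68.7% of its UMIs. The same share was 57.3%, 32.7%, 54.2% and 39.2% for Fxyd2, and 37.7%, 28.1%, 32.2% and 31.3% for Ecm1. Lyz1 was thus the most concentrated of the 3 in every library. Fxyd2 was also concentrated in few cells in WT, and less so in DB. The largest count in any macrophage was 371 UMIs for Fxyd2 and 507 UMIs for Lyz1, both in 21-week-DB.

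**Figure D2:**
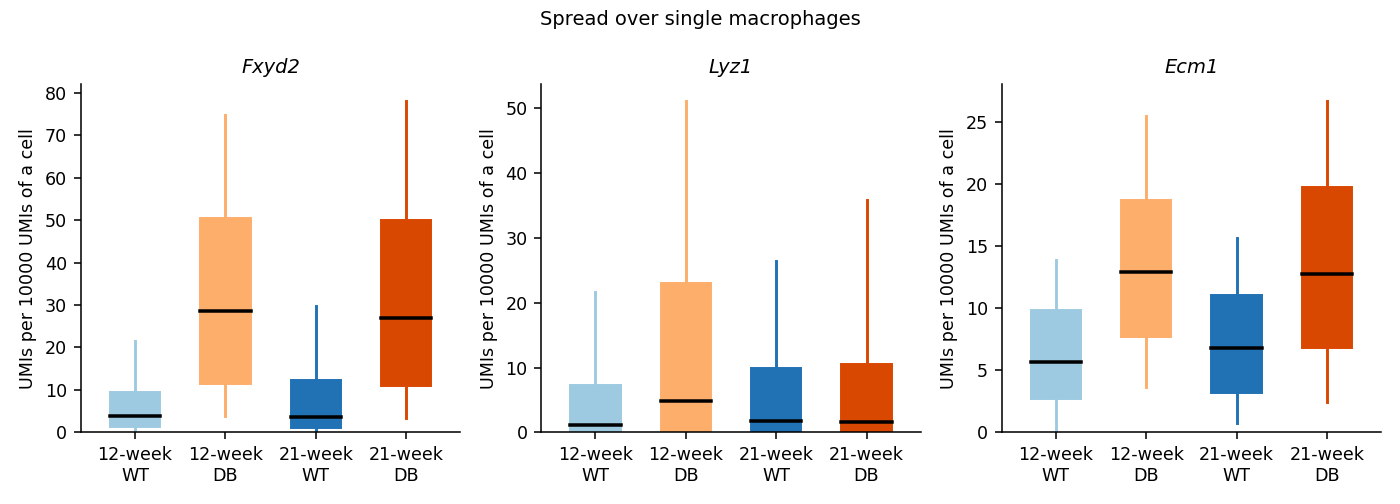
UMIs of each gene per 10000 UMIs of a cell (linear axis) over the macrophages of each library; the line is the median, the box the 25th to 75th percentile and the whisker the 10th to 90th percentile. Fxyd2 and Ecm1 boxes of the DB libraries are shifted as a whole, whereas Lyz1 medians are 1.12 to 4.86 with long upper whiskers.

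The DB over WT ratios were taken again within each kind of macrophage, since the libraries held different shares of them. Fxyd2 was higher in DB in every side at both ages. At 21 weeks its log2 ratio was 1.71 in Lyve1+ cells, 1.87 in Lyve1- cells, 1.67 in Vsig4+ cells, 1.90 in Vsig4- cells, 1.26 in MHCII-high cells and 1.72 in MHCII-low cells. At 12 weeks it ranged from 1.76 in MHCII-high cells to 2.41 in Lyve1- cells. Ecm1 was also higher in DB in each of these sides, from 0.38 in MHCII-high cells to 0.97 in Vsig4- cells at 21 weeks, and from 0.79 in Vsig4+ cells to 1.25 in Lyve1- cells at 12 weeks. The ratio of Lyz1 varied most with the kind of cell. At 21 weeks it was 0.48 in Lyve1+ cells and 0.76 in Lyve1- cells, 1.07 in MHCII-high cells and 0.74 in MHCII-low cells. Both MHCII sides thus had a larger ratio than the whole, where MHCII-high cells were 51% of WT and 13.3% of DB macrophages. In Vsig4- cells it was 0.78, but in Vsig4+ cells it was -0.01, with an interval of -0.09 to 0.06 that included no change.

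**Figure D3:**
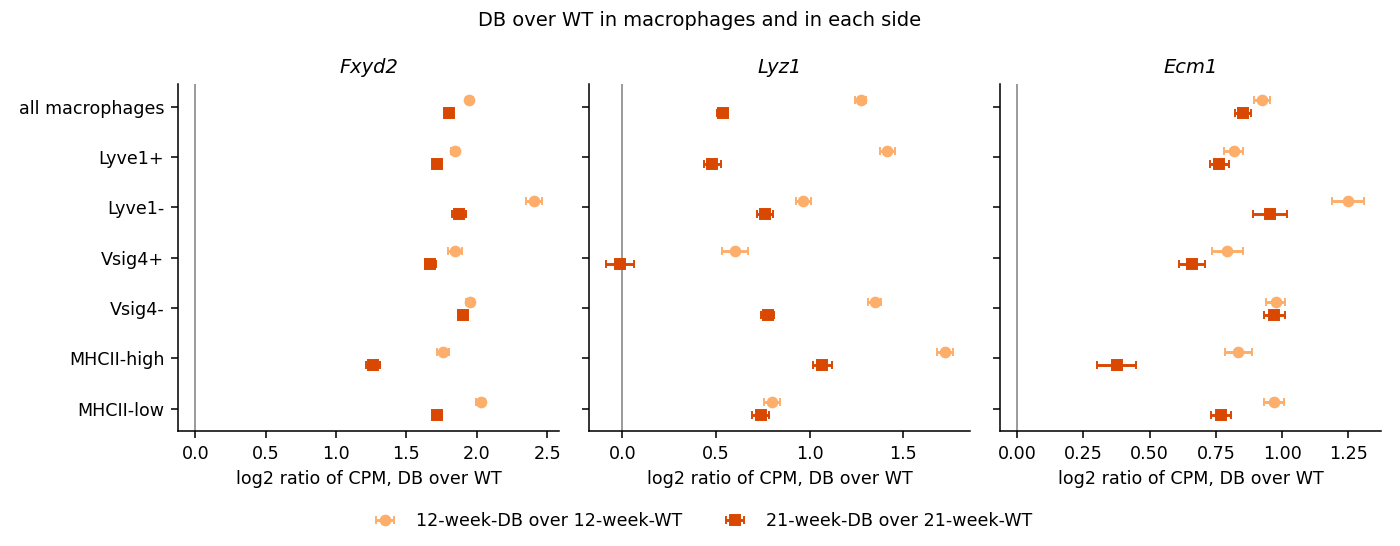
Log2 ratio of CPM, DB over WT, at 12 weeks (circles) and 21 weeks (squares) in all macrophages and in each side of the Lyve1, Vsig4 and MHCII splits, with exact 95% counting intervals. Every Fxyd2 and Ecm1 value lies right of 0, and Lyz1 in Vsig4+ cells at 21 weeks lies at -0.01.

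Which macrophages carried the members was tested within libraries. Counts were summed over the Lyve1+ and the Lyve1- macrophages of each library, and edgeR's quasi-likelihood test was fitted to the 8 sums. The library was a block, and p-values were adjusted by Benjamini-Hochberg over all genes tested. The 4 libraries are the only replicates, and each differs in condition from the others. In Lyve1+ macrophages 13.6% of 11903 genes were higher and 13.5% lower. Fxyd2 and Ecm1 were among the higher and Lyz1 was among the lower.

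Fxyd2 was at 1089, 3902, 1331 and 4368 CPM in Lyve1+ macrophages of the 4 libraries. Lyve1- macrophages had 604, 3201, 713 and 2609 CPM of it. The Lyve1+ side was higher in 4 of 4 libraries, by 0.85, 0.29, 0.90 and 0.74 on the log2 scale. The edgeR difference was 0.60 with a standard error (SE) of 0.11 (adjusted p = 0.0047), and 0.41 with cells thinned to 2000 UMIs. So thinned, 12-week-DB had 3505 CPM of Fxyd2 in Lyve1+ and 3288 CPM in Lyve1- macrophages. Among MHCII-low cells alone the side differences were 0.66, -0.04, 0.94 and 0.66, so that in 12-week-DB it was not higher on the Lyve1+ side there. Among MHCII-high cells they were 1.08, 0.32, 0.95 and -0.09, where 21-week-DB had 15 Lyve1+ cells and an interval of -0.23 to 0.05. Among Vsig4- cells they were 0.95, 0.38, 1.19 and 1.04.

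Lyz1 had the opposite distribution. It was at 529, 1412, 628 and 877 CPM in Lyve1+ macrophages and at 1278, 2497, 1338 and 2268 CPM in Lyve1- macrophages. The Lyve1- side was higher in 4 of 4 libraries, with log2 ratios of Lyve1+ over Lyve1- of -1.27, -0.82, -1.09 and -1.37. The edgeR difference was -1.23 (SE 0.10, adjusted p = 0.00015), and -1.37 with cells thinned to 2000 UMIs. It was largest in size of the 3 members and kept its sign in MHCII-low cells, at -1.60, -0.60, -1.14 and -1.36. In MHCII-high cells of 12-week-DB the ratio was -0.03, with an interval of -0.07 to 0.01. At full depth the share of cells with a UMI of Lyz1 differed less, at 57.4%, 74.0%, 67.4% and 58.1% of Lyve1+ cells. In Lyve1- cells it was 62.8%, 76.2%, 60.2% and 67.7%, so that in 21-week-WT the Lyve1+ side was higher. Lyve1+ cells had the higher median depth in every library. With cells thinned to 2000 UMIs and split by the thinned counts, the share was 34.4%, 46.9%, 40.6% and 33.2% of Lyve1+ cells. In Lyve1- cells it was then 45.9%, 63.0%, 46.4% and 50.8%, higher in every library. Lyz2 was not called, at -0.02 (SE 0.09, edgeR adjusted p = 0.87).

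Ecm1 was at 837, 1474, 971 and 1648 CPM in Lyve1+ macrophages and at 595, 1414, 547 and 1060 CPM in Lyve1- macrophages. The Lyve1+ side was higher in 4 of 4 libraries, by 0.49, 0.06, 0.83 and 0.64. The edgeR difference was 0.41 (SE 0.11, adjusted p = 0.030). This call was lost when 1 library was left out, with an adjusted p of 0.13 without 12-week-WT, 0.13 without 21-week-WT and 0.083 without 21-week-DB. In MHCII-low cells of 12-week-DB Ecm1 was lower on the Lyve1+ side, at -0.19, and in MHCII-high cells of 21-week-DB it was at -0.03 (-0.25 to 0.19).

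In Vsig4+ macrophages 12.4% of 11625 genes were higher and 11.4% lower by the same test. Lyz1 was at 607, 923, 498 and 494 CPM in Vsig4+ cells and at 808, 2054, 1090 and 1866 CPM in Vsig4- cells. The Vsig4+ level was lower in 4 of 4 libraries, by 0.41 in 12-week-WT and by 1.92 in 21-week-DB. The edgeR difference was -1.18 (SE 0.18, adjusted p = 0.00074), while Lyz2 was higher in Vsig4+ cells, at 0.37 (SE 0.08, adjusted p = 0.0085). Fxyd2 was lower in Vsig4+ cells by a small amount, with library ratios of -0.18, -0.29, -0.18 and -0.41 and an edgeR difference of -0.30 (SE 0.06, adjusted p = 0.0063). With cells thinned to 2000 UMIs this difference was -0.53. At full depth the share of Vsig4+ cells with a UMI of Fxyd2 was not lower, at 90.1%, 97.6%, 91.1% and 98.0%. In Vsig4- cells, which had the lower median depth in every library, it was 80.2%, 97.6%, 78.2% and 96.1%. For Ecm1 the edgeR difference was 0.02 (SE 0.06, adjusted p = 0.87), with library ratios of 0.15, -0.03, 0.19 and -0.11.

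The MHCII split called 15.1% of 11936 genes higher and 14.9% lower in MHCII-high macrophages. Lyz1 was at 902, 2976, 1070 and 2242 CPM in MHCII-high cells and at 659, 1147, 669 and 1116 CPM in MHCII-low cells. The MHCII-high side was higher in 4 of 4 libraries, by 0.45, 1.38, 0.68 and 1.01, and the edgeR difference was 0.99 (SE 0.14, adjusted p = 0.0012). Fxyd2 went the other way, with library ratios of -0.21, -0.47, -0.34 and -0.80. Its edgeR difference was -0.34 (SE 0.09, adjusted p = 0.028). It was no longer called without 12-week-WT (adjusted p = 0.063), without 12-week-DB (0.14) or without 21-week-WT (0.078), and was -0.22 without 21-week-DB. Ecm1 was at -0.22 (SE 0.10, edgeR adjusted p = 0.14), below 0 in 4 of 4 libraries. Without the library block none of the 3 members was called in any of the 3 splits (adjusted p of 0.060 to 0.99 by edgeR).

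**Figure D4:**
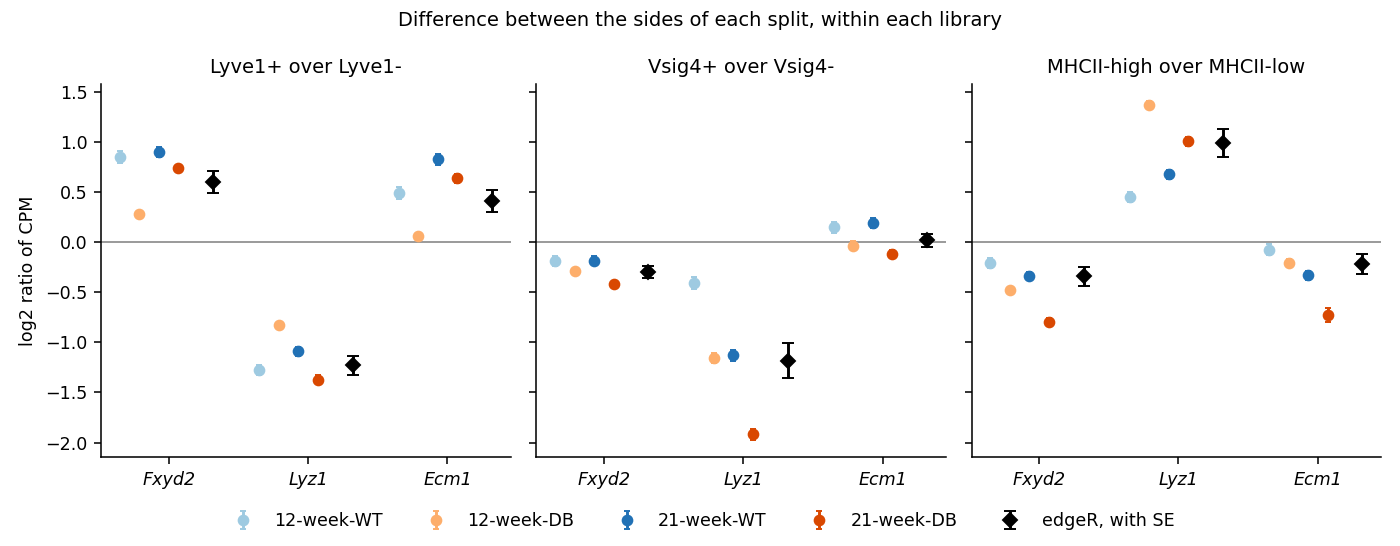
Log2 ratio of CPM between the sides of the Lyve1, Vsig4 and MHCII splits within each library (coloured points, exact 95% counting intervals) and the edgeR difference with its SE (black diamonds). Lyz1 is at -1.23 in the Lyve1 split and 0.99 in the MHCII split, opposite in sign to Fxyd2 at 0.60 and -0.34.

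Most macrophages held UMIs of several members. All 3 were found in 48%, 72.6%, 52.8% and 57.6% of macrophages. The products of the single shares were 43.6%, 71.0%, 48.7% and 56.6%, a little below the measured share in every library. Thinned to 2000 UMIs, 15.4%, 46.2%, 19.5% and 32.2% of cells held all 3. Macrophages with none of the 3 were 3.44%, 0.241%, 2.07% and 0.588%.

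Over single macrophages Fxyd2 and Ecm1 varied together, and Lyz1 varied little with either. Pearson's r of ln(1 + UMIs per 10000) between Fxyd2 and Ecm1 was 0.41, 0.55, 0.48 and 0.57 over the 1361 to 1662 macrophages of each library. Thinned to 2000 UMIs it was 0.22, 0.34, 0.32 and 0.43. Between Fxyd2 and Lyz1 r was 0.00 to 0.09, and between Lyz1 and Ecm1 0.07 to 0.17. Cells of a library share its mice and processing, and r moves with depth, so these values are descriptions.

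The genes most like each member were taken by the highest mean r over the 4 libraries, among 8850 genes found in at least 5% of macrophages of every library. For Fxyd2 these were the water channel gene Aqp1 at 0.55, S100a6 at 0.52, Ecm1 at 0.50, Tppp3 at 0.46 and S100a4 at 0.45. For Ecm1 they were Crip1 at 0.53, S100a6 at 0.52, Fxyd2 at 0.50, Tppp3 at 0.47 and Aqp1 at 0.46. The lists of Fxyd2 and Ecm1 thus shared S100a6, Tppp3 and Aqp1 and named each other. For Lyz1 they were its paralog Lyz2 at 0.33, the perforin-like gene Mpeg1 at 0.26, the chemokine receptor gene Ccr2 at 0.21, and the MHCII genes H2-Ab1 and H2-DMa, each at 0.20. How reads that fit both Lyz1 and Lyz2 were counted was not checked, and their part in the r of 0.33 was not tested. Of each list of 5, 4 genes remained after thinning. Lyz1 and Lyve1 had r of -0.17, -0.23, -0.13 and -0.25.

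Other cells served as a measure of carried-over RNA, either free RNA, which adds UMIs to every droplet, or doublets, droplets with 2 cells. The Cd3 gate described next set no upper limit on C1q, so a droplet with a macrophage and a T cell could pass it. Doublets were kept. Thinned to 2000 UMIs, 1235 Cd3 gate cells of 12-week-DB held 293 UMIs of Lyz1, in 112 cells. Free RNA and doublets were not told apart in the values of this gate. Cells with at least 2 UMIs of Cd3 genes and outside the macrophage rule are no known source of Fxyd2 or Lyz1, whereas Ecm1 is known from some helper T cells. Their Fxyd2 level was 50, 313, 48.2 and 193 CPM, against 946 to 3858 CPM in macrophages, and was higher in DB at both ages as in macrophages. Fxyd2 was detected in 15.3%, 40%, 10.1% and 18.5% of these cells, at median depths of 6088, 5484, 6718 and 5414 UMIs. Lyz1 was at 90.8, 296, 42.3 and 54.3 CPM there and Ecm1 at 71.3, 163, 69.4 and 81.1 CPM. The ratio of Fxyd2 to UMIs of the macrophage gene Pf4 in these cells was 0.334, 1.21, 0.537 and 1.45, beside 0.327, 0.984, 0.535 and 1.34 in macrophages, with overlapping intervals in both WT libraries. For Lyz1 and Ecm1 it was above that of macrophages in 3 of 4 and in 4 of 4 libraries, with 0.606 against 0.259 for Lyz1 and 0.476 against 0.265 for Ecm1 in 12-week-WT. With the level in Cd3 cells subtracted, the DB over WT ratios in macrophages were 1.89, 1.20 and 0.89 for Fxyd2, Lyz1 and Ecm1 at 12 weeks.

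The members were not equally restricted to macrophages. Cells with dendritic cell markers outside the macrophage rule had 134, 1048, 90.6 and 522 CPM of Fxyd2, below macrophages in every library. Their Lyz1 level was 224, 683, 161 and 1834 CPM, and in 21-week-DB it was above that of macrophages, at 1280 CPM. The 302 dendritic gate cells of 21-week-DB had 7050 UMIs of Lyz1, found in 49.3% of them. Cells with neutrophil markers had 16.4, 1198, 7.06 and 34.3 CPM of Lyz1, where the high value of 12-week-DB came from 19 of 87 cells. Ecm1 was high in the few cells with collagen transcripts, at 1048, 919, 1527 and 332 CPM in 27, 26, 16 and 22 cells. Cells with mast cell markers had 182, 325, 225 and 270 CPM of Ecm1, above the 71.3 to 163 CPM of Cd3 cells of the same libraries. For B cells the counts of all 3 genes were low, with at most 89 UMIs in a library. These were of Fxyd2 in 12-week-WT, at 1.02 per UMI of Pf4 (0.75 to 1.39), against 0.327 in macrophages. In the other libraries the B cell interval of this Fxyd2 ratio included the macrophage value.

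**Figure D5:**
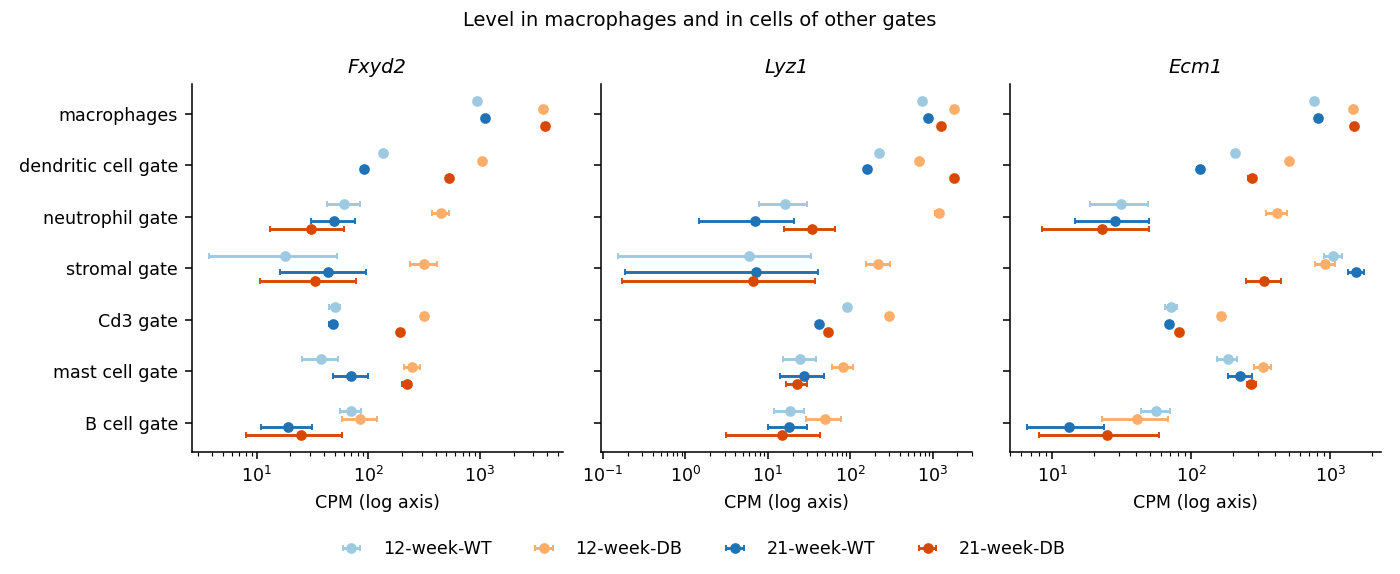
CPM (log axis) of Fxyd2, Lyz1 and Ecm1 in macrophages and in cells of 6 other marker gates, by library, with exact 95% Poisson intervals. Macrophages are highest for Fxyd2 in every library, stromal cells reach 1527 CPM of Ecm1, and dendritic gate cells of 21-week-DB reach 1834 CPM of Lyz1.

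Genes of related function were counted from lists chosen with earlier results of these data known, among all genes tested by edgeR or, between conditions, among list genes with at least 50 UMIs. Over all 11648 genes with that many UMIs at 12 weeks, 1.27% were at least 2-fold higher in DB and 3.06% at least 2-fold lower. Over the 11464 such genes at 21 weeks, 5.2% were higher and 3.11% lower, and these shares are the ones to read the lists' counts between conditions against. Of 12 genes of the sodium pump and the FXYD family, 10 could be tested in the Lyve1 split. Fxyd6 was higher in Lyve1+ cells, at 2.39 (SE 0.51, edgeR adjusted p = 0.010), as was the pump beta subunit gene Atp1b3, at 0.31 (SE 0.07, adjusted p = 0.013). Of the 2 list genes that were lower, Fxyd5 was at -0.30 (SE 0.08, adjusted p = 0.029). Thus 2 of 10 were called in each direction, beside 13.6% and 13.5% of all genes, and the list's median was -0.11, against 0.01 over all genes. Between conditions these abundant genes of the list moved less than Fxyd2. Fxyd5 had 1046, 1254, 1143 and 1094 CPM and Atp1b3 307, 378, 277 and 412 CPM. At 21 weeks 1 of 8 list genes was at least 2-fold higher in DB, Fxyd6 at 0.95 and 3.25 CPM, and 1 was lower, Fxyd7 at 8.21 and 3.47 CPM. The median of the 8 was 0.38, against 0.08 over all genes with 50 or more UMIs.

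Of 11 lysozyme and antimicrobial granule genes, 6 were tested in the Lyve1 split and 4 were lower in Lyve1+ cells, with a median of -1.09. These were Chil3 at -1.87, Ear2 at -2.84, Plac8 at -1.59 and the oxidase subunit gene Cybb at -0.60. In MHCII-high cells 5 of 7 were higher and 1 was lower, with a median of 1.64. Over all genes these shares were 13.5% lower in Lyve1+ cells, and 15.1% higher and 14.9% lower in MHCII-high cells. Between conditions the genes of this list moved in both directions. At 12 weeks 1 of 10 was at least 2-fold higher in DB and 6 were lower, with a median of -1.08. The 6 were Ngp (-5.75), Ltf (-5.67), Camp (-5.16), Lcn2 (-1.43), Retnla (-1.09) and Plac8 (-1.07). Macrophages of 12-week-DB also had less of the summed neutrophil markers, 73.6 against 236 CPM, while their summed monocyte markers, given above, were higher. Whether carried-over RNA of neutrophils had a part in the 6 lower values was not tested. The one that was higher, Chil3, had a log2 ratio of 5.60 at 12 weeks, from 0.36 CPM in WT to 17.3 CPM in DB, and of 2.24 at 21 weeks. At 21 weeks Retnla was at 3040 CPM in WT and 24.7 CPM in DB, Cybb at 691 and 479 CPM, and Chil3 at 3.01 and 14.2 CPM. Of the 7 list genes with enough UMIs, 2 were at least 2-fold higher in DB, Chil3 and Lcn2 (2.57), and 3 were lower, with a median of -0.53.

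Of 8 partners of Ecm1 and matrix genes, 6 were tested in the Lyve1 split. The proteoglycan gene Hspg2 was higher, at 2.39, and Thbs1 and Il2rb were lower, at -2.36 and -0.75, with a median of -0.41, so that 1 of 6 was called higher and 2 lower, beside the same 13.6% and 13.5%. At 21 weeks 0 of 5 were at least 2-fold higher in DB and 1 was lower, Thbs1 at 55.7 and 22.1 CPM. The integrin gene Itgav was at 116 and 74.5 CPM and Tgfb1 at 255 and 169 CPM there, in WT and DB.

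The remaining lists describe the kinds of macrophage. All 8 tested resident genes were higher in Lyve1+ cells, with a median of 2.03, and all 5 MHCII genes were lower, with a median of -2.63, where 13.6% and 13.5% of all genes were called. In Vsig4+ cells 4 of 4 tested joint-lining genes were higher, beside 12.4% of all genes, with a median of 0.76, among them Sparc at 2.83 and Cx3cr1 at 0.87. The splits therefore overlap, and the same cells enter several of them. At 21 weeks all 5 MHCII genes were at least 2-fold lower in DB, with a median of -1.94, and 0 of 9 resident genes passed 2-fold, with a median of -0.55.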

How the data were processed

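CD45+ hindpaw cells were sequenced with the 10x 3' v3 kit, with 1 library per condition. The authors used Cell Ranger and the mm10 genome, and the deposited values are UMI counts of each gene in each barcode, without normalization, removal of free RNA or doublets. The labels name Cell Ranger 5.0.0 for every library. Macrophages held 16866665 and 19063977 UMIs (WT and DB at 12 weeks) and 17912363 and 13844070 UMIs (at 21 weeks).

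Here the counts were filtered, gated, summed and scaled to CPM in Python 3.11.15 with numpy 2.4.6, scipy 1.17.1 and scanpy 1.11.5. Levels have exact Poisson intervals, ratios exact conditional binomial intervals and shares Clopper-Pearson intervals, at 95% and for counting error only. Sums of the sides of each split (at least 1 UMI of Lyve1 or Vsig4, or H2-Ab1 at 2 or more) were tested with the quasi-likelihood test of edgeR 4.0.16 (R 4.3.3), after filterByExpr and TMM scaling. Each library formed a block, and a Benjamini-Hochberg adjusted p under 0.05 was called. The gene that made a split was left out. The SE is the difference divided by the square root of F. Cells were grouped by their own counts, so genes that vary with depth enter a split. The code was tested on simulated counts.

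The members and gene lists were chosen with earlier results of these data known. The genes named are the members, the listed genes, the 5 genes most like each member, and the neighbours in rank at 12 weeks, which were named after their values were seen. Gate thresholds of the other cell types were also set after the data were seen, as were the removal of shared barcodes and the alternative macrophage rule of at least 3 UMIs of Csf1r and Adgre1 with no Cd3e. Doublets were kept, since Scrublet's own threshold marked 0 and 2 cells of the 21-week libraries, and the highest scores were removed as an alternative (253, 391, 477 and 636 cells). Other alternatives were at least 20 C1q UMIs, at least 500 genes, at most 5% mitochondrial UMIs, thinning to 2000 UMIs, subtraction of the Cd3 gate level, other split thresholds (2 UMIs, or 1.5 for H2-Ab1), DESeq2 1.42.0 and its size factors, no filter, no block, and each library left out. Another way of gating macrophages, and results for some listed genes, are not reported here. Gene positions and transcripts are from the mm10 annotation and upstream sequences from RefSeq.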

Additional observations from a re-analysis of the deposited data

Results flagged for a closer look

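The genotypes differed in sign in several untested comparisons. In Vsig4+ over Vsig4- macrophages, the log2 ratio of Ecm1 was 0.15 in 12-week-WT and 0.19 in 21-week-WT, but -0.033 in 12-week-DB and -0.11 in 21-week-DB. The interval of 12-week-DB, -0.075 to 0.0088, included no change. The difference between genotypes was not tested. Each of these values is small beside the DB over WT ratio of Ecm1, and edgeR did not call the gene in this split.

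Lyz1 was detected in 15.8 percentage points more macrophages of DB than of WT at 12 weeks, and in fewer at 21 weeks, with a difference of -3.46 points. From 12 to 21 weeks its log2 ratio over all macrophages was 0.24 in WT and -0.50 in DB, where MHCII-low cells alone were at -0.04. Its share of positive macrophages moved by 5.53 points in WT and by -13.7 points in DB. The share of macrophages with Ecm1 moved by 2.32 points in WT and by -1.58 points in DB over the same time. With 1 library per condition, none of these differences could be tested.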

How the results depend on the processing

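No DB over WT ratio of the 3 genes changed sign under any alternative given here. On the log2 scale, for Fxyd2, Lyz1 and Ecm1, a macrophage rule on Csf1r and Adgre1 that was tried after the data were seen gave 2.08, 1.52 and 1.01 at 12 weeks and 2.21, 1.11 and 1.15 at 21 weeks. At 12 weeks thinning gave 2.06, 1.23 and 1.12, and subtraction of the Cd3 gate level 1.89, 1.20 and 0.89. At 21 weeks thinning gave 1.77, 0.38 and 0.89, and removal of doublets 1.86, 0.50 and 0.89. At least 20 C1q UMIs gave 1.20 for Lyz1 at 12 weeks, and 1.77, 0.49 and 0.82 at 21 weeks. At most 5% mitochondrial UMIs gave 1.89 for Fxyd2 at 12 weeks and 1.71, 0.50 and 0.89 at 21 weeks, and subtraction gave 0.90 for Ecm1 there. The other 21 ratios moved by less than their counting interval. Without the replicate block by library, genes called higher and lower were 490 and 352 in the Lyve1 split, 193 and 106 in the Vsig4 split, and 575 and 599 in the MHCII split. Thinning, which leaves fewer UMIs, gave 764 and 849, 611 and 513, and 816 and 782. DESeq2 gave 896 and 864 in the Vsig4 split. With each library left out in turn, which leaves fewer sums, the counts ranged from 1015 to 1450 and 1150 to 1414 for Lyve1, from 981 to 1300 and 822 to 1156 for Vsig4, and from 1133 to 1978 and 1010 to 1827 for MHCII. The lowest counts came without 12-week-WT for Lyve1 higher (1015; 1068 without 12-week-DB), and without 21-week-WT for Vsig4 lower and for MHCII, where 1066 genes were lower without 12-week-WT. The Ecm1 difference in the Vsig4 split, 0.02, was -0.012 without the block, -0.016 without 12-week-WT and -0.016 without 21-week-WT, and ranged from -0.016 to 0.069. The causes of these changes were not tested. Of 108 member values in the 3 splits under alternatives, 92 kept their direction and side of the threshold. Each condition had 1 library.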
